A study of Mus musculus with 3 samples.

Results

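The genes described here are 10 enzymes and transporters that make the lipid barrier of the epidermis (Elovl1, Elovl3, Elovl4, Elovl6, Cers3, Degs2, Alox12b, Aloxe3, Ugcg, and Abca12), read in skin-resident macrophages of the mouse. They were chosen from the change between these same arrays, because Elovl4 showed the largest increase between the first and the later arrays, and the remaining genes were taken as its partners in the pathway. All values below are therefore a description. The 10 genes were represented by 14 probes of the 26056 probes that could be named through a RefSeq transcript (19752 genes), out of 55681 probes on the array.

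CD11b+Gr1-F4/80+ macrophages were sorted by FACS from backskin of CD1 mice at postnatal days 42, 55, and 69 (P42, P55, P69), ages that the study places in early, mid, and late telogen, the resting phase of the hair follicle. The labels name no transgene or treatment. For each age the RNA of 3 littermate mice was pooled and, being scarce, passed through a whole transcriptome amplification before Cy3 labeling and hybridization to 1 Agilent array. With 1 array per age no spread between samples exists, no test between ages was possible, and only the error of repeated spots could be measured. The labels give day 42 for the first array, whereas the study's text names another day for early telogen.

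In the outer epidermis, very long fatty acids are made by elongases of the Elovl family, joined to a sphingoid base by ceramide synthases, linked to linoleate, and loaded as glucosylceramides into lamellar bodies by the transporter Abca12. After secretion, the lipoxygenases encoded by Alox12b and Aloxe3 oxidize the linoleate, a step needed to attach the lipid to the cornified envelope. These enzymes are known from differentiated keratinocytes, and Elovl3 also from sebaceous glands and hair follicles, and they are not markers of macrophages.

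Levels are given as log2 of the processed signal relative to the 75th percentile of the array, so that 0 is the 75th percentile and a step of 1 is a 2-fold difference. A probe is called well above background by the scanner software's own call. If 1 of a pair of arrays failed this call, the fold is written as "at least", with the probe's own signal on that array raised, where needed, to the detection limit of the array, which is the weakest signal that passed the call there. Such a probe had to differ to be given at all. The detection limit lay at -4.50 on the P42 array, -4.04 on the P55 array, and -5.10 on the P69 array. The share of probes well above background was 71.4%, 59.6%, and 68.7%, respectively, and no spot was saturated. From repeated spots, the technical SD of a difference between arrays was 0.158 (P55 minus P42), 0.161 (P69 minus P42), and 0.148 (P69 minus P55) on the log2 scale. It holds the error of spots within an array, and not that of amplification, labeling, or hybridization. The deposited table of processed values lists the P55 and P69 arrays the other way round from the scanner files, since 100% of its probes fell within 0.05 (log2) of the scanner values once the later arrays were exchanged, against 3.08% as labelled. Both later arrays are therefore given throughout, in the assignment of the scanner files, and with the exchange each P55 value below would read as P69 and the reverse.

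The promoters of Elovl4, Alox12b, and Abca12 are shown because these genes had the highest (Elovl4) and the lowest changes of the 10 on both later arrays. Each window runs from 250 bases before to 50 bases after the RefSeq start of the gene (build GRCm38.p6), and is printed 5′ to 3′ on the strand of the gene. The windows are chr9:83806256-83806555 (minus strand) for Elovl4, chr11:69156822-69157121 (plus strand) for Alox12b, and chr1:71414861-71415160 (minus strand) for Abca12. Capitals mark matches, on either strand, to the GC box (GGGCGG), the E-box (CACGTG), or the CCAAT box (CCAAT).
Elovl4: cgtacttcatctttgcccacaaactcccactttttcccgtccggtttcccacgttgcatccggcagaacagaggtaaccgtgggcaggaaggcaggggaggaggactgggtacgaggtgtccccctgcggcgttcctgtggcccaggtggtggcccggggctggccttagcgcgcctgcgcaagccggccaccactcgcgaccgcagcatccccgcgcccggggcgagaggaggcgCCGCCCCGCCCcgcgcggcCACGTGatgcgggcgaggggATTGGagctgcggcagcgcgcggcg
Alox12b: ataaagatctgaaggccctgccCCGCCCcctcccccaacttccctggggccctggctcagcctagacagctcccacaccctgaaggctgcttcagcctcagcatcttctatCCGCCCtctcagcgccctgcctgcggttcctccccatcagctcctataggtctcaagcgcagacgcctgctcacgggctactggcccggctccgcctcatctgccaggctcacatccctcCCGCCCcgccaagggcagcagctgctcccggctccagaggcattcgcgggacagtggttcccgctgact
Abca12: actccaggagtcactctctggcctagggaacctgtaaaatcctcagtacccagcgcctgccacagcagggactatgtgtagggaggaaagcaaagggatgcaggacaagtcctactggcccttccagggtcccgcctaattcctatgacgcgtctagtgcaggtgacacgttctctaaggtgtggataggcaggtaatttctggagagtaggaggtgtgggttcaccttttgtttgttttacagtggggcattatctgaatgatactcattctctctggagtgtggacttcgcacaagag

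The Elovl4 window held 71.0% G and C, against a median of 52.7% over the 32851 RefSeq promoters of the same length. It contained 2 GC boxes that share a base, with first bases at -14 and -9 from the start, an E-box at +6, and a CCAAT box at +26. Of all promoters, 35.7% held a GC box, 7.15% this E-box, and 37.4% a CCAAT box. The Alox12b window held 66.0% G and C and 3 GC boxes (at -228, -139, and -19), while the Abca12 window held 51.3% G and C and none of the letters searched. Neither a TATA box (TATAAA, in 13.6% of promoters) nor the core of the Grainyhead-like factors (AACNNGTT, in 4.20% of promoters), which act in epidermal barrier formation, was present in any of the 9 windows available for 8 of the 10 genes. Among the other windows, those of Degs2 and Ugcg held 5 and 2 GC boxes, the windows of Elovl1 held 5 at its first start and 2 at its second, and those of Elovl6 and Cers3 held no match. Elovl3 and Aloxe3 were not among the promoters used. A match describes these letters only.

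On the P42 array 8 of the 14 probes were well above background (6 genes), on the P55 array 10 (8 genes), and on the P69 array 13 (9 genes). Only 6 probes, of 5 genes, were well above background on all 3 arrays. At P55, 8 of the 12 probes with a value were at least 2-fold higher than at P42 (Elovl1, Elovl3, Elovl4, Elovl6, Degs2, and Aloxe3), 4 of them as bounds, while 28.5% of all named probes with a value passed the same limit. In the other direction, 2 probes were at least 2-fold lower at P55, both as bounds (Alox12b and Abca12), against 16.8% of all named probes. At P69, 5 of the 12 probes with a value were at least 2-fold higher than at P42 (Elovl3, Elovl4, Cers3, and Aloxe3), 4 of them as bounds, against 22.4% of all named probes. The 1 probe at least 2-fold lower at P69 was of Alox12b, against 20.2% of all named probes. Counted by the brightest probe of each gene, 6 genes were at least 2-fold higher and 2 lower at P55, against 29.4% and 17.1% of all named genes. With another background correction, normexp, these were 4 and 0, against 22.5% and 10.9%. At P69, 4 were higher and 1 lower, against 22.5% and 21.3% of all named genes. With normexp these were 1 and 1, against 15.9% and 20.3%. Without scaling between arrays they were 7 and 0, against 60.3% and 3.93%. Since the genes were chosen from this contrast, nothing is read from the shares.

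The study calls a probe changed at 10-fold. At this limit 3 probes were higher at P55 (both probes of Elovl4 and that of Aloxe3, 2 of them as bounds), against 1.06% of all named probes, and 2 were higher at P69 (both of Elovl4, 1 of them as a bound), against 0.652%. None of the probes was 10-fold lower on either later array, where 0.286% of all named probes were at P55 and 0.473% at P69. Taking the brightest probe of each gene, the median change from P42 was 1.35 at P55 and 0.69 at P69, each over the 9 genes with a value. Bounds entered both medians. The P55 median was itself the bound of Degs2, set by the detection limit, and the P69 median was the measured change of Elovl1. With only genes detected on both arrays, which were fewer, the medians were 1.36 and 0.50. Over all named genes the median change was 0.22 at P55 (15857 genes) and 0.15 at P69 (16189 genes). Relative to it the 10 genes lay higher by 1.13 and 0.53, and by 0.66 to 1.14 and 0.32 to 0.55 under the other scalings and the other background correction tried.

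**Figure D1:**
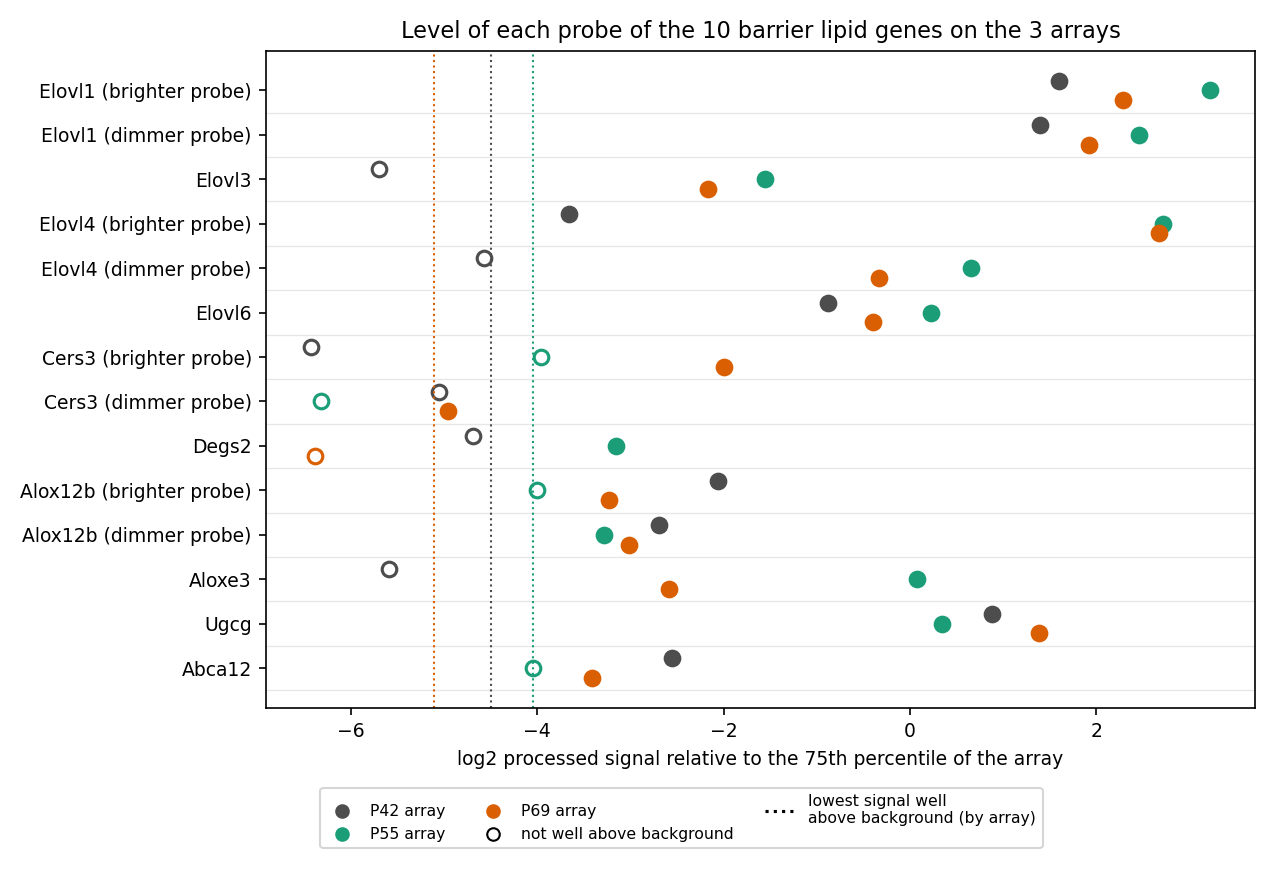
Level of each of the 14 probes on the P42, P55, and P69 arrays (x axis, log2 processed signal relative to the 75th percentile of the array). Filled points are well above background, open points are not, and the dotted lines mark the lowest signal well above background on each array. The brighter Elovl4 probe moves from -3.66 at P42 to 2.72 and 2.67, whereas the brighter Alox12b probe and the Abca12 probe are highest at P42 on this scale (without scaling between arrays, Abca12 is 0.31 higher at P69).

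Among the elongases, Elovl4 extends saturated and polyunsaturated fatty acids to the longest chains of the body, those that end up in acylceramides. Its gene lies at chr9:83778692-83806305 (GRCm38.p6). The brighter Elovl4 probe had a level of -3.66 at P42, 2.72 at P55, and 2.67 at P69, well above background on all 3 arrays. The later arrays thus lay far above the first and, on the reported scale, 0.05 apart. With quantile normalization P69 lay 0.26 above P55, and without scaling between arrays 0.86 above it. The signal itself was 32.9 on the P42 array, close to the lowest signal taken as detected there, against 3268 at P55 and 5913 at P69. Relative to P42 the level was 82.9-fold higher at P55 (6.37 on the log2 scale) and 80.3-fold higher at P69 (6.33). With normexp these were 27.6-fold and 28.6-fold, and without scaling between arrays 99.5-fold and 180-fold. None of the 13228 genes measured on both arrays at P55, or of the 14143 at P69, had a higher change, which is the property for which Elovl4 was chosen. The other Elovl4 probe read -4.57 at P42, within background, 0.65 at P55, and -0.33 at P69. It was at least 35.6-fold higher at P55 and at least 18.0-fold higher at P69, bounds that were 8.11-fold and 4.31-fold with normexp. Both probes therefore placed P42 lowest. On the reported scale they placed the later arrays differently, 0.05 apart with the brighter and 0.98 apart with the other probe.

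Elovl3 makes saturated and monounsaturated very long fatty acids and is best known in skin for the lipids of sebum and hair (chr19:46131897-46135694). Its probe read -5.70 at P42, where it was not well above background, -1.55 at P55, and -2.17 at P69. Both later arrays lay above P42, by at least 7.71-fold at P55 and at least 5.03-fold at P69, and P69 lay 0.62 below P55. With normexp the bounds were 2.69-fold and 1.78-fold, the latter under 2-fold. The signal at P42 was 7.97, against 169 and 206 on the later arrays. Elovl1 extends saturated acyl chains that feed sphingolipids in most tissues (chr4:118426874-118432953). The brighter of its probes read 1.60 at P42, 3.22 at P55, and 2.29 at P69, and the other probe read 1.40, 2.46, and 1.92. Both probes were well above background on every array and gave the same order, P42 lowest and P55 highest. At P55 the level was 3.07-fold higher than at P42 with the brighter probe and 2.08-fold higher with the other. At P69 the differences from P42 were 0.69 and 0.52 on the log2 scale, below 2-fold.

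Elovl6 lengthens palmitate to stearate and so supplies the starting chains for the other elongases (chr3:129532386-129638495). Its level was -0.88 at P42, 0.22 at P55, and -0.39 at P69, again with P42 lowest and P55 highest. The difference from P42 was 2.14-fold at P55 (1.71-fold with normexp) and 1.40-fold at P69. The order of the later arrays depended on the scaling, and without scaling P69 lay above P55 by 0.29 for Elovl6 and by 0.28 for Elovl3, while the Elovl1 probes differed by -0.03 and 0.37. All 4 elongases of the set thus had P42 as their lowest array, at steps that ranged from 0.48 (Elovl6 at P69) to 6.37 (Elovl4 at P55). Of 14143 genes measured on both arrays at P69, 4593 had a higher change than Elovl1 and 5658 a higher change than Elovl6.

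**Figure D2:**
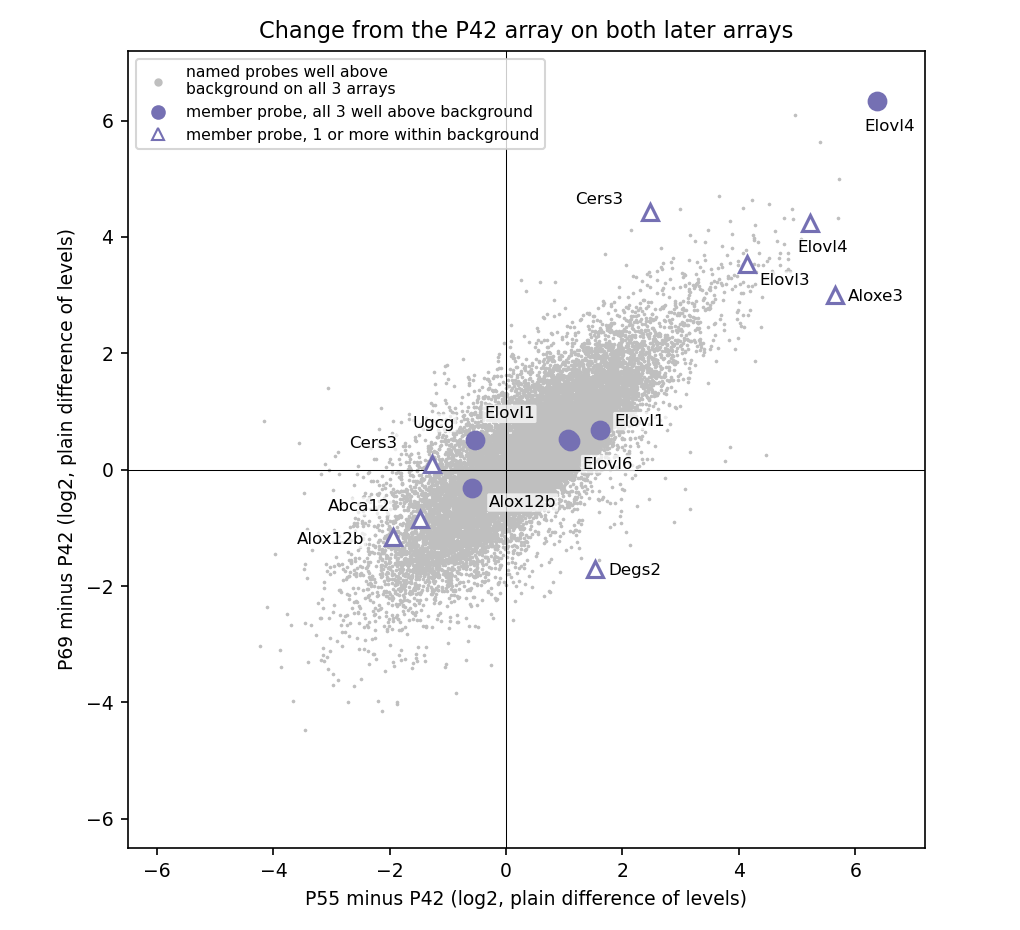
Change from the P42 array at P55 (x axis) and at P69 (y axis), each as a plain difference of log2 levels, for named probes well above background on all 3 arrays (gray) and for the 14 probes of the 10 genes (purple). Circles are probes well above background on all 3 arrays, and triangles have 1 or more arrays within background, so that their position is uncertain. Elovl4 lies at 6.37 and 6.33, Ugcg lies on opposite sides of 0 (-0.54 at P55, though 0.02 with median scaling, and 0.51 at P69), with the sides exchanged in the deposited value table, and Alox12b and Abca12 lie below 0 on both axes, with Abca12 at 0.31 at P69 without scaling between arrays.

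The genes that build and modify the ceramide itself were dim. Cers3 joins ultra-long acyl chains to sphingoid bases and is the ceramide synthase of the epidermal barrier (chr7:66733118-66823692). Its brighter probe read -6.42 at P42 and -3.95 at P55, both within background, and -2.00 at P69. Only the P69 array was well above background, at least 5.66-fold above P42 and at least 3.87-fold above P55, bounds that were under 2-fold with normexp (1.94-fold and 1.55-fold). The other Cers3 probe read -5.05, -6.32, and -4.96, was well above background at P69 alone, and allowed no fold in any comparison. Only the brighter probe gave a fold. The other probe passed at P69 at a level below the detection limits of the P42 and P55 arrays (-4.50 and -4.04). It lay 0.09 above its P42 level, less than the technical SD of 0.16, so its detection at P69 alone is not a sign of a rise.

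Degs2 adds the hydroxyl group that turns dihydroceramide into phytoceramide, a form common in the epidermis (chr12:108686792-108702306). Its probe is spotted 10 times on the array, so that the technical error could be seen directly. The mean level was -4.68 at P42, -3.15 at P55, and -6.39 at P69. At P42, 2 of the 10 spots were well above background, with spots from -5.80 to -4.02 (SD 0.58). At P55 all 10 spots were, from -3.60 to -2.59 (SD 0.32). At P69 none of the 8 spots in use was, from -7.04 to -5.98 (SD 0.37), and the 2 spots that the software marked as outliers and that were left out read -4.22 and -4.03, both well above background. On the reported scale the P55 spots did not overlap those of the other arrays, and the spots in use at P69 lay below all spots at P42. Without scaling between arrays, the left-out P69 spots overlapped those of P55, and the P69 spots in use overlapped those of P42. The signal of the probe was then 16.1 at P42, 56.0 at P55, and 11.1 at P69. These are spots of 1 hybridization and not replicates of an age. Degs2 was at least 2.55-fold higher at P55 than at P42, and at least 3.87-fold lower at P69 than at P55. With normexp these bounds were 1.28-fold, under 2-fold, and 2.75-fold. No fold was given between P69 and P42, where both were within background. The difference from P42 at P55 turned to -1.70 with the deposited value table, in which the later arrays are exchanged. That table was read without the detection filter, and the value compares the scanner arrays of P69 and P42, both within background.

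**Figure D3:**
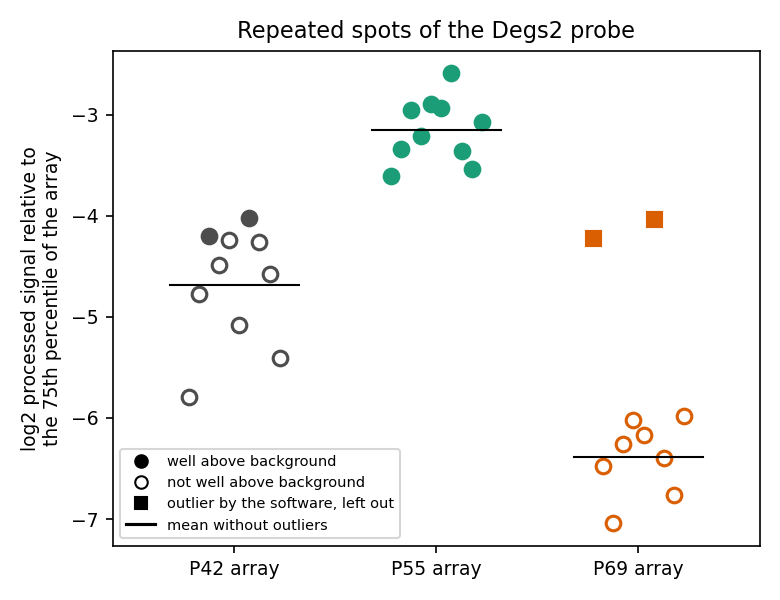
Levels of the 10 repeated spots of the Degs2 probe on each array (y axis, log2 processed signal relative to the 75th percentile of the array). Filled symbols are well above background, open symbols are not, squares are spots marked as outliers by the software, and lines are means without them (-4.68, -3.15, and -6.39). On this scale the P55 spots, from -3.60 to -2.59, lie above every spot of the other arrays, whereas without scaling between arrays they overlap the left-out P69 spots.

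On the reported scale the lipoxygenases moved in opposite directions, although their genes are neighbors on chromosome 11, 7956 bases apart. For Alox12b the direction depended on the probe and the scaling. Alox12b, the enzyme that puts oxygen on the linoleate of acylceramides (chr11:69157072-69169791), had a brighter probe at -2.06 at P42, -4.00 at P55, within background, and -3.22 at P69. It was highest at P42, by at least 3.84-fold over P55 and by 2.24-fold over P69. With normexp the bound at P55 was 2.00-fold. The other Alox12b probe read -2.70, -3.28, and -3.02 and was well above background on all 3 arrays. It gave the same order of the arrays but smaller differences, -0.58 at P55 and -0.32 at P69, both under 2-fold. Without scaling between arrays the P69 difference from P42 was -0.00 with the brighter probe and 0.84 with the other, which then had P69 as its highest array. With quantile normalization the other probe was higher on both later arrays, by 0.08 at P55 and 0.29 at P69. With median scaling its differences were -0.03 and 0.20.

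Aloxe3 converts the product of the Alox12b enzyme into an epoxyalcohol (chr11:69125417-69149115). Its probe read -5.58 at P42, within background, 0.07 at P55, and -2.58 at P69. P42 was lowest and P55 highest, at least 23.8-fold above P42, while P69 was at least 3.78-fold above P42 and 6.29-fold below P55. With normexp the bounds were 5.36-fold at P55 and 1.24-fold at P69, the latter under 2-fold, and P69 was 4.32-fold below P55. This was the widest measured fold between the later arrays among the 10 genes. Of the 13 probes with a value between the later arrays, 2 were at least 2-fold higher at P69 than at P55 (Cers3, as a bound, and Ugcg), against 8.56% of all named probes, and 2 were at least 2-fold lower (Aloxe3 and, as a bound, Degs2), against 11.1%. The median change over the 10 genes was -0.33 between the later arrays, and -0.15 over all named genes (14846 genes).

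Ugcg and Abca12 carry out the last steps before secretion. Ugcg adds glucose to ceramide, in the epidermis and in most other cells (chr4:59189507-59222833), and read 0.88 at P42, 0.34 at P55, and 1.39 at P69, well above background throughout. The later arrays lay on opposite sides of P42, 1.45-fold lower at P55 and 1.42-fold higher at P69, neither of them a 2-fold difference. P69 was 2.06-fold above P55. With median scaling the P55 difference was 0.02, and in the deposited value table the P55 and P69 differences were 0.51 and -0.53. Abca12 moves glucosylceramides into lamellar bodies (chr1:71243090-71414910). Its probe read -2.56 at P42, -4.04 at P55, within background, and -3.41 at P69. It was highest at P42, at least 2.80-fold over P55 (1.63-fold with normexp) and 1.80-fold over P69, and the P69 difference was 0.31 in the other direction without scaling between arrays. On the reported scale, Abca12 and the brighter Alox12b probe were thus at their highest on the array on which Elovl4 was at its lowest.

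The genes whose changes lay nearest to those of Elovl4 were searched among the 13056 genes well above background on all 3 arrays, by the distance between the pairs of log2 changes from P42. The nearest was Ninl, a centrosomal ninein-like protein, at a distance of 1.20, with changes of 5.40 at P55 and 5.63 at P69. Lor, the cornified envelope protein loricrin, followed at 1.43 (4.96 and 6.09), and Defb6, a beta-defensin, at 1.49 (5.73 and 4.99). St14, the epidermal serine protease matriptase, lay at 2.12 (5.71 and 4.32) and 2410137M14Rik at 2.36 (4.91 and 4.47). All 5 genes had changes of 4.32 or more on both later arrays, and Elovl4 exceeded each of them on both. Elovl4 was chosen for the highest change and the 5 genes for nearness to it, so nothing is read from either. The likeness rests on 2 changes that share the P42 array.

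A further 55 genes of the same pathway were listed by their step, of which 54 were on the array. At P55, 26 of the 50 with a value were at least 2-fold higher than at P42 and 5 at least 2-fold lower (34 and 0 with median scaling), with a median of 1.04. Of all named genes 29.4% were higher and 17.1% lower at this limit (46.2% and 8.05% with median scaling). At P69, 18 of 49 were higher and 4 lower (37 and 1 without scaling), with a median of 0.56, against 22.5% and 21.3% of all named genes (60.3% and 3.93% without scaling). Relative to the median of all named genes they lay higher by 0.81 at P55 and 0.41 at P69, and by 0.59 to 0.83 and 0.28 to 0.54 under the other scalings and background correction.

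Of the other elongases, Elovl5, which lengthens polyunsaturated fatty acids, was higher by 1.91 at P55 and 1.73 at P69. Elovl7 was higher by 1.72 at P55 and differed by 0.48 at P69 (-0.15 with normexp), and Elovl2 was within background on all 3 arrays. The enzymes that complete each elongation cycle (6 genes) were all detected, with medians of 0.43 at P55 and 0.49 at P69 and 2 genes at least 2-fold higher on each later array. Hacd3, a dehydratase of this cycle, had the highest mean change (1.88 and 1.74), and Tecr, its last reductase, the lowest (0.21 and -0.99, which became -0.36 at P55 with quantile normalization and 0.17 at P69 without scaling).

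The ceramide synthases other than Cers3 were all detected, except Cers1, which was not found among the named probes. Cers2, Cers4, Cers5, and Cers6 were all at least 2-fold higher at P55, by 1.46, 1.05, 1.53, and 1.49, respectively. With the percentile over probes detected on all arrays 3 of them passed 2-fold (19.6% of all named genes). With quantile normalization 2 did (30.1% of all named genes). At P69 only Cers2 (1.15) and Cers6 (1.76) passed 2-fold, with 0.17 for Cers4 (-0.03 with the percentile taken over probes detected on all arrays) and 0.71 for Cers5. The first steps of sphingolipid synthesis, from serine palmitoyltransferase to dihydroceramide desaturation, showed 5 of 8 genes with a value at least 2-fold higher at P55 and 4 of 8 at P69, none lower, with medians of 1.10 and 1.04. The P55 count became 2 with the percentile over detected probes and 7 with median scaling (46.2% of all named genes). At P69 it became 8 of 9 without scaling (60.3% of all named genes). Sptssa, a small subunit of serine palmitoyltransferase, had the highest mean change (1.31 and 1.73) and Sptlc2, a large subunit, the lowest (-0.03, or 0.53 with median scaling, and 0.56).

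Acylceramide formation, the step particular to the epidermis, was mixed, with 3 of 5 genes at least 2-fold higher and 1 lower at P55, and 1 higher at P69. Acsl1, which activates fatty acids, had the highest mean change (1.85 and 1.99). Pnpla1, the enzyme that links linoleate to the ceramide, had the lowest, -1.54 at P55 and -0.96 at P69, the latter 0.20 without scaling between arrays. Among the further lipoxygenases and epoxyalcohol enzymes, 3 of 7 genes were at least 2-fold higher at either age, while 1 was lower at P55 and 2 at P69. Alox12e, another epidermal lipoxygenase of the chromosome 11 group, was at least 10-fold higher at both ages (4.85 and 3.46), and was the only gene of the pathway lists with this property. Alox15, a lipoxygenase of macrophages, had the lowest mean change (-0.81 and -2.19).

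For ceramide release and turnover the medians were -0.00 at P55 and -0.19 at P69, and under every scaling tried they lay below the median of all named genes, at -0.72 to -0.17 from it at P55 and -0.44 to -0.20 at P69. Acer1, the alkaline ceramidase of the epidermis, had the highest mean change (2.06 and 1.76), and Sgms1, a sphingomyelin synthase, the lowest (-1.17 and -1.04, the latter 0.12 without scaling). The cholesterol sulfate and lamellar body genes had medians of 1.11 and 0.75, with 5 of 9 at least 2-fold higher at P55 and 4 of 9 at P69. Cldn1, a tight junction protein, was highest (2.73 and 2.83), and Grhl3, a Grainyhead-like factor of the barrier, was lowest (a bound of -0.42 at P55, where it was within background, and -0.97 at P69, or 0.19 without scaling).

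**Figure D4:**
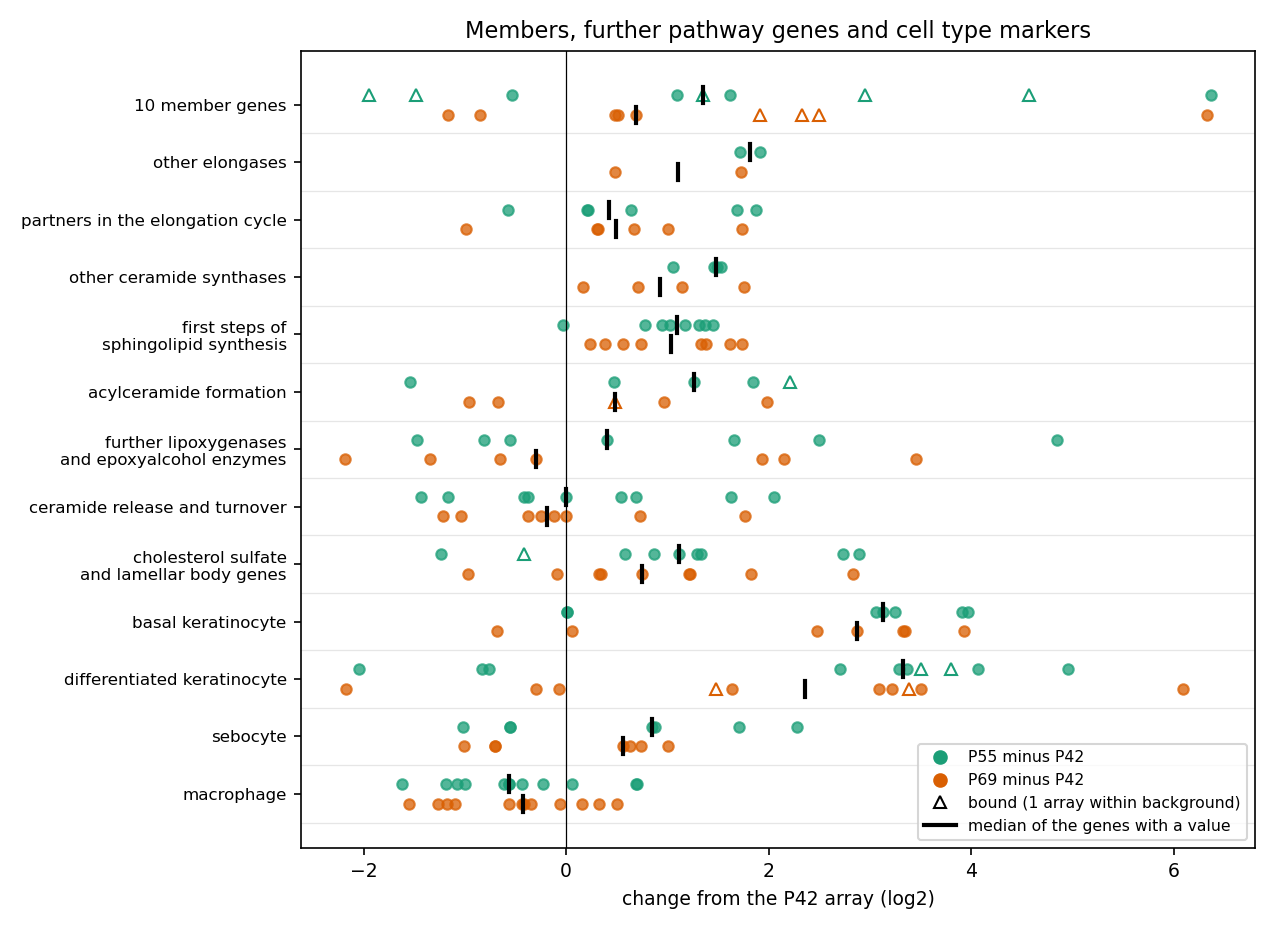
Change from the P42 array (x axis, log2) at P55 (green) and P69 (orange) for the 10 genes, the further pathway genes by step, and markers of keratinocytes, sebocytes, and macrophages. Each point is a gene by its brightest probe, open triangles are bounds, and black bars are medians of the genes with a value. The keratinocyte lists have the highest medians (2.88 to 3.13 for basal and 2.36 to 3.33 for differentiated keratinocytes), and the macrophage list lies at -0.57 and -0.43, the latter 0.74 without scaling between arrays.

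Markers of the sorted cells and of other skin cells were read on the same arrays. All 12 macrophage markers found (Cd68 was not among the named probes) were well above background on every array, and their summed signal, relative to the 75th percentile, was 890 at P42, 761 at P55, and 520 at P69. The Itgam probe, at 8.95, 8.73, and 7.85, carried more of these sums than the probe of any other marker, so they do not describe the list as a whole. None of the 12 markers was 2-fold higher on a later array, where 29.4% of all named genes were at P55 and 22.5% at P69. At least 2-fold lower were 3 markers at P55 and 4 at P69, against 17.1% and 21.3% of all named genes. With median scaling 2 markers were higher and 1 lower at P55 (46.2% and 8.05% of all named genes), and 1 and 1 at P69 (38.9% and 10.8%). Without scaling 4 markers were higher and none lower at P69 (60.3% and 3.93% of all named genes). Their median lay -0.79 and -0.58 from that of all named genes, and below it under every scaling tried, while the median itself (-0.57 and -0.43) became 0.74 at P69 without scaling. Adgre1, which encodes F4/80 of the sorting gate, read 4.83, 5.51, and 5.15, with the highest mean change of the list, and Ptprc, the pan-leukocyte CD45, had the lowest, -1.62 at P55 and -1.27 at P69. Itgam, which encodes CD11b of the same gate, changed by -0.23 at P55 and -1.10 at P69. These became 0.17 and 0.08 with quantile normalization, and 0.04 and 0.06 without scaling.

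Most keratinocyte markers, though not all, moved with Elovl4. All 7 basal keratinocyte markers were well above background on every array. On each later array 5 of them were at least 2-fold higher, against 29.4% of all named genes at P55 and 22.5% at P69. The medians of the list were 3.13 at P55 and 2.88 at P69, which were 2.47 to 2.92 and 2.61 to 2.74 above that of all named genes over the scalings and background corrections tried. Their median level was 1.22 at P42, 4.35 at P55, and 3.98 at P69. Krt5 had the highest mean change (3.97 and 3.32), and Krt15 was also at least 10-fold higher at both ages (3.91 and 3.35). Trp63 had the lowest (0.01, or -0.36 with the percentile over detected probes, and -0.68, or 0.48 without scaling), through a probe at 8.03, 8.04, and 7.35 that carried most of the summed signal of the list (274, 363, and 235).

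Of the 10 differentiated keratinocyte markers found (Flg was not among the named probes), 8 were well above background at P42, all except Cdsn and Klk7, and 10 on each later array. At both later ages 7 markers were at least 2-fold higher and 1 was lower, with medians of 3.33 at P55 and 2.36 at P69. Of all named genes 29.4% were higher and 17.1% lower at P55, and 22.5% and 21.3% at P69. Their median level was -1.85 at P42, 0.99 at P55, and 1.28 at P69, and their summed signal was 49.3, 45.2, and 37.6. Besides Lor, Krtdap (4.06 and 3.51) and Klk7 (at least 3.50 and 3.38) were at least 10-fold higher at both ages, whereas Tgm3, a transglutaminase of the hair follicle and epidermis, was lower (-2.04 and -2.17). The Tgm3 probe, at 5.49, 3.45, and 3.31, carried most of the summed signal of the list at P42. Keratinocyte transcripts were thus measurable in all 3 pools. Most markers of both lists were lower at P42 than later. The summed signal at P42 was the highest of the 3 arrays for the differentiated list and lay between those of the later arrays for the basal list. These sums at P42 came mostly from the Tgm3 and the Trp63 probe, respectively, and do not describe the other markers. The part of keratinocyte transcripts in the changes of the 10 genes was not tested, and fewer cells of a type and less RNA per cell cannot be told apart in pooled RNA. No antibody to an epithelial protein is named for the sort.

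Sebocyte markers, relevant to Elovl3, showed 7 of 9 well above background at P42 and P55 and 8 at P69, with medians of 0.85 at P55 and 0.56 at P69 and summed signals of 19.4, 28.8, and 18.8. Cidea, a lipid droplet protein, had the highest mean change (2.28 and 0.56) and Scd3, a desaturase of sebocytes, the lowest (-1.02 and -1.01, the latter 0.16 without scaling). Awat2, a wax synthase, was within background on every array. Their part was not tested. The medians were -1.15 and -0.92 for fibroblast markers, 1.58 and 1.88 for melanocyte markers, and -0.04 and -0.48 for adipocyte markers (P55 and P69, respectively). Without scaling the P69 medians of fibroblast and adipocyte markers were 0.24 and 0.68.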

How the data were processed

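Macrophage RNA of 3 pooled littermates per age was amplified and hybridized to 1 array per age, all on 1 slide. The authors scanned the arrays, quantified them with Feature Extraction 10.7.3.1, and deposited linear processed intensities for all spots, from which the software had already subtracted background (array design on mm9). They also deposited a log2 value table (36409 probes, each with a median of 0 over the arrays), whose normalization is not given in the sources used here.

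From the intensities, control spots and outlier spots (162, 274, and 281 at P42, P55, and P69) were left out, log2 values were taken relative to the 75th percentile of the array (signals of 414, 497, and 927), and spots of a probe were averaged. A probe was well above background when at least 0.5 of its spots were. Genes were named through RefSeq transcripts (GRCm38.p6 table) and represented by their brightest probe on average, and the position of a probe within its transcript was not analysed here. The spot error was the median SD over probes with 8 or more spots (289, 260, and 292 probes, with 0.120, 0.102, and 0.107). The number of arrays limits the precision.

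The members, gene lists, and alternatives were chosen with earlier results of these data known. Genes named were the 10 members, other Elovl and Cers genes, the highest and the lowest gene of each list by mean change of the later arrays, genes changed 10-fold at both ages, and the 5 genes nearest to Elovl4. Cdsn, Awat2, Flg, and Cd68 were added for their detection, and Itgam as the brightest macrophage marker and a marker of the sort. The fibroblast, melanocyte, and adipocyte lists are given by medians. Alternatives were other scalings, normexp (offset 50), the value table, other filters, outlier spots kept, genes in place of probes, and the later arrays exchanged. The scalings and normexp were extended to the gene lists, to every probe, and to P69 against P55 after the data had been seen. The study's 10-fold limit was used beside 2-fold, and its t-test for other data was not applied. Python 3.11.15, numpy 2.4.6, pandas 2.3.3, R 4.3.3, and limma 3.58.1 were used, and the steps were tested on simulated data.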

Additional observations from a re-analysis of the deposited data

How the results depend on the processing

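Of 72 values of the 6 summaries (medians and counts of probes higher than at P42) under alternatives, 39 stayed close to those reported and 33 moved, while 14 of the 18 changes of single genes kept their sign throughout. Given as P55 and then P69, the median change of the 10 genes was 0.98 and 0.48 with the percentile over probes detected on all arrays, 1.91 and 1.21 with median scaling, 1.61 and 1.85 without scaling, 0.60 and 1.58 in the value table, and 0.69 and 1.35 with the later arrays exchanged. It was 0.78 at P55 with normexp, 1.58 at P55 with a positive and significant signal as filter and with no filter, and 0.50 at P69 with detection on both arrays. Probes 2-fold higher at P55 numbered 5 with the percentile over probes detected on all arrays, in the value table, and with the exchange, and 4 with detection on both arrays. At P69 they numbered 9 with median scaling, without scaling, and in the value table, 8 with the exchange, 2 with normexp, and 1 with detection on both arrays. Of all named genes, by their brightest probe, 38.9% were 2-fold higher at P69 with median scaling, 60.3% without scaling, and 15.9% with normexp. At P55, 19.6% were with the percentile over probes detected on all arrays. Probes 10-fold higher numbered 1 at either age with normexp and with detection on both arrays, 4 at P69 without scaling, in the value table, with a positive and significant signal, and with no filter, and 1 at P69 for genes in place of probes. Elovl4 stayed higher throughout (4.79 to 6.93 at P55, 4.84 to 7.49 at P69). Degs2 turned to -1.70 at P55 in the value table, where the later arrays are exchanged and no detection filter was applied. Both arrays of that Degs2 difference were within background. Ugcg turned in the value table as it did with the exchange alone (0.51 at P55 in both). For the turns of Ugcg with median scaling and of Abca12 without scaling, the alternative is a shift of all probes of an array. Over all named genes the median change at P55 and P69 was 0.22 and 0.15 as reported, -0.16 and -0.05 with the percentile over detected probes, 0.32 and 0.30 with quantile normalization, 0.86 and 0.65 with median scaling, and 0.52 and 1.32 without scaling. Over all probes of the array, 20.3% and 14.7% were 2-fold and 0.639% and 0.378% 10-fold higher.

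No paired analysis was possible because each age has 1 array, and for the same reason leaving out an array leaves no comparison. At P42, Elovl3, Cers3, Degs2, Aloxe3, and 1 Elovl4 probe lay within background, so their folds are bounds set by the detection limit, and the 75th percentile lay 22.6-fold, 16.5-fold, and 34.3-fold above that limit at P42, P55, and P69.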
